A study of Mus musculus with 4 samples.

Results

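The ATP-binding cassette (ABC) family was described in poly(A) RNA-seq of mouse brain vasculature. Members were taken as every gene of the deposited table whose symbol is Abc followed by a subfamily letter from a to g, a number and, in some, a further letter. This gave 50 of 46072 genes, of which 16 belong to subfamily A, 10 to B, 10 to C, 4 to D, 1 to E, 3 to F and 6 to G. The series holds 4 libraries of 1 group, all of wild-type genotype and untreated, labelled as brain endothelial cells cut out by laser capture, which the series title describes as guided by immunolabelling in perfusion-fixed tissue. Nothing in the labels ties replicates 1 to 4 to separate animals. The p-values therefore cover the spread among these 4 libraries alone, and that spread may be technical. With 1 group, each comparison is between genes of the same libraries or with a fixed level. Values are the authors' FPKM, which divides fragments by gene length and library total and so lets levels of different genes be set side by side. The depth is unknown.

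ABC proteins bind and split ATP in a paired nucleotide-binding fold, and most use it to move a substrate across a membrane. At the blood-brain barrier the efflux pumps P-glycoprotein (made from 2 gene copies in the mouse, Abcb1a and Abcb1b) and breast cancer resistance protein (Abcg2) sit in the endothelial membrane that faces the blood and return drugs to it. Other members load cholesterol and phospholipid onto apolipoproteins, carry fatty acids into peroxisomes, serve mitochondria and lysosomes, or form part of a potassium channel. Subfamilies E and F keep the nucleotide-binding fold, have no membrane segment and act on ribosomes.

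The P-glycoprotein copies are so alike in sequence that part of their reads cannot be told apart, which bears on every value given for them. Their coding sequences were identical at 88.2% of 3816 aligned bases, and the longest identical run was 338 bases. The stretch of 150 bases below opens with the 30 bases before that run and goes on into it. Capitals mark the 4 bases that differ, and it covers bases 1327 to 1476 of the Abcb1a coding sequence and 1336 to 1485 of the Abcb1b one, counted from the start codon (GENCODE M21 transcripts, GRCm38, 5′ to 3′ on the plus strand of chromosome 5).
Abcb1a: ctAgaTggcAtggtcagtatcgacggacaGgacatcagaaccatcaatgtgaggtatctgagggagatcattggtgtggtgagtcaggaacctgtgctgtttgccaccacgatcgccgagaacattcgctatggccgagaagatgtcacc
Abcb1b: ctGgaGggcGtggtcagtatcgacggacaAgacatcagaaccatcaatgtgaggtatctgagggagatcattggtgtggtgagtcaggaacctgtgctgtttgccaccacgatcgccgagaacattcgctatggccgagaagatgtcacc
Of all windows of 75 bases in the longest coding transcript of Abcb1a, 10.6% also occur in Abcb1b transcripts, and 12.4% of those of Abcb1b occur in Abcb1a transcripts. The neighbouring Abcb4 shared 1.22% of its windows with Abcb1a and 0.599% with Abcb1b.

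The labelled cell type was checked against marker genes. Of 14 endothelial markers 12 lay above 1 FPKM, 1 below (Erg, a transcription factor, at 0.368 ± 0.123, SD, n = 4) and 1 in neither direction (Cdh5, vascular cadherin, at 0.878 ± 0.367), with summed levels of 168 to 192 FPKM. All 10 barrier transporters outside the family lay above 1 FPKM, with a median of 12.4 ± 1.02 FPKM. Markers of other cells were present too, and in most lists at higher sums. All 8 markers each of choroid plexus, oligodendrocytes, neurons, astrocytes and microglia lay above 1 FPKM. Their summed levels were 11706 to 17209, 4888 to 6150.2, 2250 to 2877, 921 to 1104.5 and 198 to 284 FPKM, in that order. Most of the choroid plexus sum was 1 gene, Ttr, with a mean of 14493 FPKM. By list median the order differed, with neurons at 167 FPKM, oligodendrocytes at 142, astrocytes at 100, choroid plexus at 24.3 and microglia at 16.7. The endothelial list median was 4.52 FPKM. Above 1 FPKM were also 5 of 6 erythroid (1 below; sum 1202 to 2017 FPKM), 6 of 6 smooth muscle (132 to 166), 6 of 8 pericyte (1 below; 95.4 to 109), 5 of 6 fibroblast (69.1 to 102) and 4 of 6 oligodendrocyte precursor markers (1 below; 65.6 to 81.5). No marker in these lists was at 0 in all libraries. Which cells the RNA of a member came from was not tested, and in bulk samples fewer cells of a type and less RNA per cell cannot be told apart.

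Drug efflux pumps were led by Abcg2 and Abcc5, with the P-glycoprotein genes well below both. Abcg2 measured 14.4, 17.4, 11.9 and 13.6 FPKM in replicates 1 to 4, with a mean of 14.3 ± 2.29 (SD, n = 4). Abcc5, multidrug resistance-associated protein 5, which exports cyclic nucleotides and other organic anions, measured 13.8, 13.6, 12.9 and 11.2 FPKM. Both lay above 1 FPKM in every library, by 2.92 ± 0.09 and 2.79 ± 0.07 (SE) on the log2(FPKM + 1) scale (limma, adjusted p = 2.26e-06 and 7.6e-07 over all genes tested). Abcb1a (chromosome 5, 8660077 to 8748575, GRCm38) measured 4.78, 3.10, 2.29 and 3.26 FPKM. Replicate 1 was the highest and replicate 3 the lowest, and the gene lay 1.09 ± 0.16 above 1 FPKM (adjusted p = 0.00139). Abcb1b (chromosome 5, 8798147 to 8866315) measured 0.935, 1.23, 1.25 and 0.986 FPKM and passed against 1 FPKM in neither direction (adjusted p = 0.551), but above it with libraries rescaled to a sum of 1000000 (0.75, adjusted p = 0.00596).

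Abcb1a was the higher P-glycoprotein copy, and Abcg2 was higher than both Abcb1a and Abcc4, in 4 of 4 libraries each. Abcb1a exceeded Abcb1b by 1.03 ± 0.43 (SD, n = 4) on the log2(FPKM + 1) scale, and the ratio of their FPKM lay between 1.83 and 5.11. Abcb1a lay at -1.83 ± 0.32 from Abcg2, with a ratio of 0.178 to 0.331, and at 0.69 ± 0.46 from Abcc4, multidrug resistance-associated protein 4, a pump of organic anions. Abcg2 exceeded Abcc4 by 2.52 ± 0.33. The ranges of these genes did not overlap within any of these pairs. By the exact 2-sided sign-flip test each gave p = 0.125 (0.133 adjusted over 16 pairs). With 16 sign patterns no lower p exists, so no pair could pass 0.05.

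The other efflux pumps were near or under 1 FPKM. Abcc4 measured 1.36, 1.5, 1.94 and 1.82 FPKM and lay above 1 FPKM (0.40 ± 0.12, adjusted p = 0.0228), a call lost without replicate 3 (adjusted p = 0.0774) or 4 (adjusted p = 0.089). Abcc1, multidrug resistance-associated protein 1, a glutathione-conjugate pump also found in choroid plexus epithelium, measured 1.69, 0.722, 1.45 and 1.34 FPKM, and Abcc10 measured 1.26, 0.557, 1.36 and 1.70 FPKM. Replicate 2 was lowest for both, as it was for summed choroid plexus markers (14307, 11706, 16276 and 17209 FPKM), whose part was not tested. Neither passed against 1 FPKM (adjusted p = 0.281 and 0.506). With rescaled libraries both lay above it (0.89, adjusted p = 0.00905, for Abcc1 and 0.80, adjusted p = 0.0193, for Abcc10), as did Abcc1 with a length trend removed (0.45, adjusted p = 0.0212). Both settings also raised values in general. The median of log2(FPKM + 1) over all genes tested went from 1.27 to 1.99 with rescaling and to 1.95 with the length trend removed. These calls are thus not made against 1 FPKM as deposited. Abcc3 lay below it at 0.233, 0.116, 0.0513 and 0.187 FPKM. Abcc2, the canalicular pump of hepatocytes, was listed at 0 in replicates 1 and 4 and at 0.0733 and 0.152 in replicates 2 and 3, and Abcb5 was listed at 0 in all 4. In total 4 of the 10 pumps lay above 1 FPKM, 2 below it and 3 in neither direction, and Abcb5 was not tested. Over all genes tested 47.7% lay above and 40.1% below, so the share of pumps above is near the background.

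**Figure D1:**
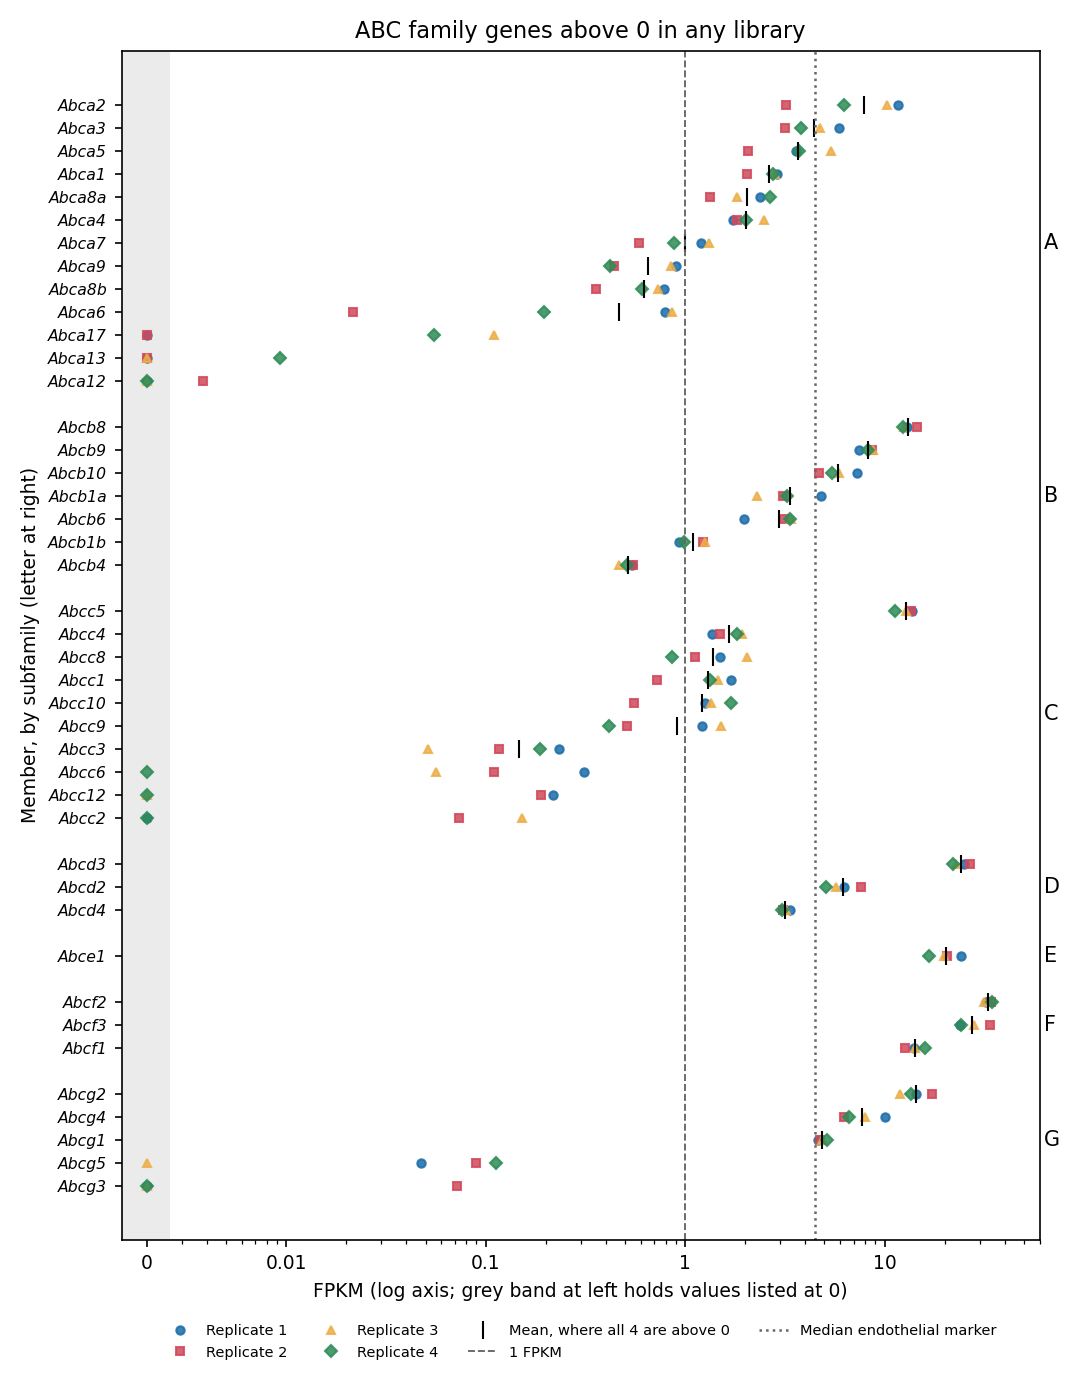
FPKM of 42 of the 44 members above 0 in any library (log axis), by subfamily, with 1 symbol per library and the mean as a bar where all 4 values are above 0. Dashed and dotted lines mark 1 FPKM and the median of the endothelial markers, and the members run from Abcf2, near 33.1 FPKM, to members listed at 0 in most libraries.

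Over the whole family, 44 members were above 0 in at least 1 library and could be tested. Of these, 25 lay above 1 FPKM, 12 below and 7 in neither direction, which is 56.8% above and 27.3% below, where the background over 25206 genes tested is 47.7% above and 40.1% below. The median of log2(FPKM + 1) was 1.59 over these 44 members and 1.27 over all genes tested; nothing particular to the family is read from these shares. A mean of 5 FPKM or more was reached by 13 members, 29.5% of the 44, against 33.2% of genes tested, and 10 FPKM or more by 8, or 18.2%, against 22.8%. In order of level, 42 of 43 neighbouring members had ranges that overlap, and only Abcc5 and the next gene, Abcb9, did not. The SD of log2(FPKM + 1) between libraries had a median percentile of 46.0 among the 500 genes nearest in mean, over the 29 members averaging 1 FPKM or more.

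Against the endothelial markers, pumps and organelle genes fell on both sides. The reference was the median of 14 general endothelial genes in the same library, which was 4.81, 4.23, 5.35 and 3.61 FPKM. Of the 44 members, 12 lay above it and 27 below, 27.3% and 61.4%, where the background is 30.6% above and 60.9% below. In this fit the error of the shared reference is part of every gene, and limma's prior degrees of freedom were infinite, so its p-values are too small. With the reference held at its average over libraries, an alternative chosen after seeing the data, 12 lay above and 26 below. Of the 25206 genes tested, 7734 then lay above and 15247 below. By count of libraries, 12 of the 50 members lay above the reference in 4 of 4 libraries, 34 below it in 4 of 4, and 4 were mixed. The 34 include the 6 members listed at 0 throughout. No share over all genes was taken for this count, so nothing particular to the family is read from it. Abcg2 was 1.48 ± 0.15 (SE) above the reference and Abcc5 1.34 ± 0.15. Abcb1a lay -0.36 ± 0.18 from it (adjusted p = 0.0487), a call lost with the averaged reference (adjusted p = 0.0811), without replicate 2 (adjusted p = 0.0939) or 3 (-0.16, adjusted p = 0.432), with either smaller pseudocount and with either rescaling. Over all alternatives its adjusted p ran from 0.001 to 0.432.

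Of the 4 highest members, 3 were not transporters but genes of subfamilies E and F. Abcf2, of which little is known, measured 32.1, 34.3, 31.5 and 34.6 FPKM, the smallest coefficient of variation of the 4 highest, at 4.75%. Abcf3, a relative of the yeast factor Gcn20 that acts in amino acid starvation signalling, measured 23.8, 33.9, 28.2 and 24.2 FPKM, with replicate 2 the highest. Abce1, which splits ribosomes into subunits after translation ends, measured 24.2, 20.6, 19.8 and 16.7 FPKM. Abcf1, which binds initiation factor eIF2, measured 14.1, 12.6, 14.3 and 16.04 FPKM. All of these lay above 1 FPKM (limma, adjusted p = 1.05e-07 to 1.1e-06) and above the endothelial reference in 4 of 4 libraries. Abcf1 lay -1.16 ± 0.14 (SD, n = 4) from Abcf2 with ranges apart, whereas Abce1 lay -0.42 ± 0.31 from Abcf3, was lower in 3 of 4 libraries and had an overlapping range (2-sided exact sign-flip p = 0.25). The 4 genes made up 39.4% ± 2.04 of the summed FPKM of the family, which was 242 ± 10.5.

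Their partners in ribosome recycling and in eIF2 signalling were also present. All 10 genes of that list lay above 1 FPKM, with a median of 14.5 ± 1.05 FPKM. The highest were Eif1, an initiation factor, at 514 ± 26.6 FPKM and Eif2s2, a subunit of eIF2, at 39.8 ± 3.01, and the lowest was Eif2ak4, the kinase GCN2, at 2.24 ± 0.487. Pelo, which acts with Hbs1l before Abce1 on stalled ribosomes, measured 3.76 ± 0.271 FPKM and Hbs1l 15.1 ± 2.2.

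**Figure D2:**
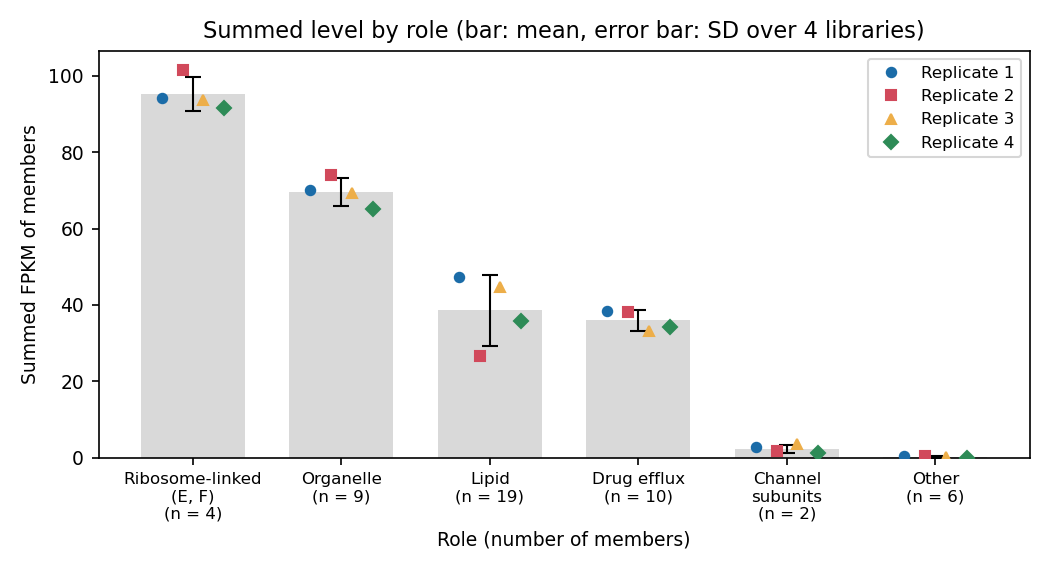
Summed FPKM of the members of each role, as the mean (bar), SD (error bar) and 4 libraries (symbols). The ribosome-linked genes of subfamilies E and F sum to 95.2 FPKM, organelle members to 69.6, lipid members to 38.6 and drug efflux pumps to 36.0, and the lipid sum is lowest in replicate 2.

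Organelle transporters were all measured above 1 FPKM, 9 of 9, where 47.7% of all genes tested lay above, with a summed 69.6 ± 3.64 FPKM. The call of 1 of them was lost when replicate 2, 3 or 4 was left out. Abcd3, the peroxisomal membrane protein PMP70 that carries branched-chain and dicarboxylic fatty acids, measured 24.9, 26.8, 22.9 and 21.9 FPKM. Abcd2, another peroxisomal fatty acid carrier, measured 6.30, 7.66, 5.68 and 5.11 FPKM. The range of Abcd3 lay above that of Abcd2 with no overlap.

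Genes that insert and supply these peroxisomal carriers were all above 1 FPKM, 10 of 10, with a list median of 20.8 ± 2.79 FPKM. Pex19, the chaperone that brings peroxisomal membrane proteins such as Abcd3 to the membrane, measured 45.3 ± 3.95 FPKM and Pex3, its docking factor, 17.4 ± 0.918. Scp2, a sterol carrier protein, was highest at 106 ± 9.30, and Ehhadh, a bifunctional oxidation enzyme, lowest at 2.02 ± 0.571.

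Mitochondrial and lysosomal members of subfamily B spanned a few FPKM to over 10 FPKM. Abcb8, of the mitochondrial inner membrane, measured 13.0, 14.6, 12.5 and 12.4 FPKM. Abcb9, a lysosomal peptide transporter, measured 7.41, 8.66, 8.77 and 8.29 FPKM, and its range did not overlap that of Abcb8. Abcb10, which serves haem synthesis in red cell precursors, measured 7.29, 4.69, 5.89 and 5.46 FPKM. Erythroid genes moved between libraries in these samples, with summed levels of 1202 to 2017 FPKM, highest in replicate 2, where Abcb10 was lowest, and their part in its values was not tested. Abcb6, a porphyrin transporter, measured 1.98, 3.12, 3.40 and 3.34 FPKM. Its value is uncertain because 88.5% of its windows of 75 bases also occur in Gm29253, a transcript on the same strand listed at a mean of 1.73 FPKM.

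Genes of iron-sulfur cluster assembly and haem synthesis lay above 1 FPKM in 11 of 11 cases, with a median of 27.3 ± 3.30 FPKM, and all 11 exceeded the endothelial reference. Iscu, the assembly scaffold, was highest at 175 ± 20.9 FPKM, followed by Isca1 at 94.3 ± 6.92, and Nubp1 was lowest at 7.28 ± 0.882. Abcd4, which works with Lmbrd1 to release vitamin B12 from lysosomes, was among the steadiest members at 3.35, 3.09, 3.20 and 3.07 FPKM. Lmbrd1 itself measured 33.0 ± 3.11 FPKM. Of 7 genes of vitamin B12 handling 6 lay above 1 FPKM, with Mmadhc, a trafficking protein, highest at 47.3 ± 3.28. Mtr, methionine synthase, lay below at 0.468 ± 0.167.

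Of the 19 lipid transporters, 8 members lay above 1 FPKM, 7 below and 2 in neither direction, and Abcb11 and Abcg8 were listed at 0. Over all genes tested 47.7% lay above and 40.1% below. The counts, out of 17 tested, are near that background, and nothing particular is read from them for the lipid transporters. Abca2, an endolysosomal lipid transporter abundant in oligodendrocytes, was the highest of them at 11.7, 3.21, 10.3 and 6.26 FPKM. It was highest in replicate 1 and lowest in replicate 2, and its SD between libraries exceeded that of all of the 500 genes nearest in mean. Summed oligodendrocyte markers were 4888, 6150.2, 5193 and 5655 FPKM in replicates 1 to 4, highest where Abca2 was lowest, and their part was not tested. Abcg4, which exports sterols in neurons and astrocytes, measured 10.05, 6.29, 8.02 and 6.6 FPKM. Abcg1, its relative that loads cholesterol onto lipoprotein particles, measured 4.65, 4.74, 4.87 and 5.17 FPKM, the smallest spread of the lipid members above 1 FPKM. Abcg1 lay -0.56 ± 0.31 (SD, n = 4) from Abcg4 with ranges apart.

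Abca1, which starts lipoprotein formation by passing cholesterol and phospholipid to apolipoproteins, was lower than Abcg1 in 4 of 4 libraries. It measured 2.89, 2.04, 2.83 and 2.75 FPKM, -0.70 ± 0.16 (SD, n = 4) from Abcg1 with a ratio of 0.431 to 0.623. Abca2 exceeded Abca1 by 1.17 ± 0.57, with a ratio of 1.57 to 4.03. Abca1 exceeded Abca7, a phagocytosis-linked relative whose human gene carries Alzheimer risk variants, by 0.87 ± 0.12. Abca7 measured 1.2, 0.585, 1.32 and 0.879 FPKM and did not pass against 1 FPKM (adjusted p = 0.9). With libraries rescaled to a sum of 1000000 it lay above it (0.62, adjusted p = 0.0284).

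The acceptors and regulators of this lipid export were mostly far higher than the transporters. Of the 14 genes listed, 13 lay above 1 FPKM, with a median of 11.3 ± 2.06 FPKM. Apoe, the main lipid acceptor of brain, measured 1575 ± 159 FPKM and Clu, clusterin, 621 ± 49.5. Apoa1, the acceptor of plasma, lay below 1 FPKM at 0.346 ± 0.226. Among the liver X receptors, which switch on Abca1 and Abcg1, Nr1h2 measured 22.5 ± 2.63 FPKM and Nr1h3 2.36 ± 0.83.

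Other lipid members of subfamily A were spread from a few FPKM down to 0. Abca3, which fills lamellar bodies with surfactant lipid in the lung, measured 5.94, 3.16, 4.73 and 3.79 FPKM, and 10.95% of its windows of 75 bases lie in D330041H03Rik, an overlapping transcript on the opposite strand (mean 0.341 FPKM). Abca5, a lysosomal member, measured 3.61, 2.07, 5.37 and 3.73 FPKM. Abca4, the retinoid flippase of photoreceptors, measured 1.75, 1.83, 2.48 and 2.03 FPKM and lay above 1 FPKM (0.59 ± 0.12, SE, adjusted p = 0.00572). Abca12, which serves the lipid barrier of skin, was listed at 0.00384 FPKM in replicate 2 and at 0 in the others, and Abca13 at 0.00935 in replicate 4 and at 0 in the others. Abca17 was listed at 0 in replicates 1 and 2 and at 0.11 and 0.0549 FPKM in replicates 3 and 4. Abca14, Abca15 and Abca16 were listed at 0 in all libraries.

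**Figure D3:**
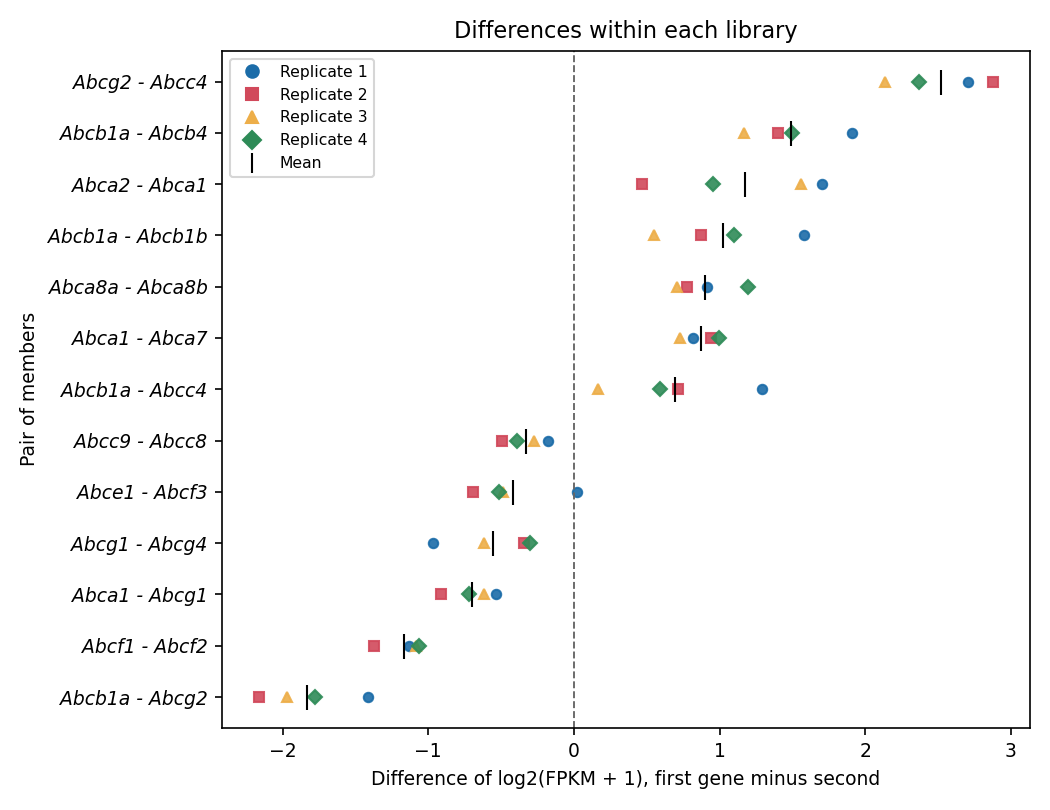
Difference of log2(FPKM + 1) within each library for 13 of the 16 pairs of members, the first gene minus the second, with 1 symbol per library and the mean as a bar. In 12 of them all 4 libraries lie on 1 side of 0, and in Abce1 minus Abcf3 replicate 1 lies on the other side.

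Among bile and sterol transporters of liver and gut, Abcb4 was measured in every library and the others were at or near 0. Abcb4, the phosphatidylcholine transporter of bile, measured 0.540, 0.550, 0.466 and 0.511 FPKM and lay below 1 FPKM (-0.40 ± 0.06, SE, adjusted p = 0.00159). With libraries rescaled to a sum of 1000000 it passed in neither direction (0.078, adjusted p = 0.553). Abcb1a exceeded this neighbour by 1.49 ± 0.31 (SD, n = 4), with a ratio of 4.92 to 8.85. Abcg5 and Abcg8, which act as a pair to export plant sterols, were listed at 0.0472, 0.0898, 0 and 0.113 FPKM and at 0 throughout. Abcg3, a mouse member with no human counterpart, was listed at 0.0717 FPKM in replicate 2 and at 0 in the others.

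The sulphonylurea receptors, subunits of the ATP-sensitive potassium channel, were both near 1 FPKM and passed in neither direction in the values as deposited. With rescaled libraries Abcc8 lay above 1 FPKM (0.95, adjusted p = 0.00817). Abcc8, the receptor of pancreatic beta cells and neurons, measured 1.5, 1.13, 2.04 and 0.857 FPKM. Abcc9, the receptor of vascular mural cells, measured 1.22, 0.513, 1.51 and 0.417 FPKM. Both were higher in replicates 1 and 3 than in replicates 2 and 4, and Abcc9 lay -0.33 ± 0.14 (SD, n = 4) from Abcc8, lower in 4 of 4 libraries but with overlapping ranges. With a length trend removed the difference was -0.07, with Abcc9 lower in 3 of 4 libraries. The longest transcript has 7499 bases in Abcc9 and 4877 in Abcc8. Genes of 6000 bases or more were also higher in replicates 1 and 3 by their median, as given below. So were genes of 4000 to 6000 bases, with median deviations of 0.10, -0.07, 0.06 and -0.09 in replicates 1 to 4. The part of length in the values of Abcc8 and Abcc9 by library was not tested. Summed pericyte markers were 100.5, 109, 95.4 and 96.8 FPKM, highest in replicate 2, and their part was not tested. These markers did not move alike. Vtn, the highest of the list, measured 59.8, 74.1, 52.8 and 58.7 FPKM, and Kcnj8 was also highest in replicate 2. Rgs5 measured 23.6, 17.9, 19.7 and 17.7 FPKM, higher in replicates 1 and 3. Of the pore subunits, Kcnj8, which pairs with Abcc9 in pericytes, measured 3.21 ± 0.644 FPKM and Kcnj11, which pairs with Abcc8, 0.846 ± 0.205. In the same subfamily, Abcc6 (mutated in human pseudoxanthoma elasticum) and Abcc12, lay below 1 FPKM, with Abcc6 at 0.31, 0.11, 0.0562 and 0 FPKM and Abcc12 at 0.218, 0.189, 0 and 0.

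Regulators and anchors of efflux pumps had levels from 0 to 27.2 FPKM. The membrane anchors Slc9a3r1 (27.2 ± 2.17 FPKM), Ezr, ezrin (23.1 ± 1.03), Rdx, radixin (20.4 ± 1.99) and Msn, moesin (9.30 ± 1.53) lay above 1 FPKM. Among the regulators, Nfe2l2, the oxidative stress factor Nrf2, measured 15.0 ± 2.16 FPKM and Arnt, the partner of Ahr, 3.47 ± 0.771, both above 1 FPKM. The xenobiotic receptor Nr1i2, which induces Abcb1a, was listed at 0.0827 FPKM in replicate 1 and at 0 in the others, and Nr1i3 and Ahr passed in neither direction at 0.964 ± 0.473 and 1.21 ± 0.526. Of the 11 genes listed 6 lay above 1 FPKM and 2 below, 2 passed in neither direction, and Pdzk1 was listed at 0. ABC genes under other symbols were low to moderate, with Tap2 at 4.83 ± 0.721 FPKM and Tap1, its partner in loading MHC peptides, at 1.37 ± 0.331. Cftr, the chloride channel of the family, was listed at 0.171, 0, 0 and 0.285 FPKM.

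Members that neighbour each other on a chromosome were described together. There were 8 groups of members no more than 200000 bases apart, holding 21 members. Of these, 5 subfamily A genes lie on the minus strand of chromosome 11 between 109932190 and 110337716 (GRCm38). In that group Abca8a measured 2.37, 1.33, 1.83 and 2.68 FPKM and Abca8b 0.788, 0.356, 0.735 and 0.609, a difference of 0.90 ± 0.22 (SD, n = 4) in 4 of 4 libraries with ranges apart. Their coding sequences were identical at 76.5% of aligned bases, and 0.649% of the windows of Abca8a occur in Abca8b. Abca9 measured 0.897, 0.441, 0.846 and 0.421 FPKM, and Abca6 0.798, 0.0216, 0.857 and 0.196, both high in replicates 1 and 3. Summed fibroblast markers were 87.7, 69.1, 102 and 74.1 FPKM, also higher in replicates 1 and 3, and their part was not tested. Igf2, the highest of them, measured 43.0, 26.0, 54.9 and 33.7 FPKM, whereas Dcn measured 29.6, 30.1, 26.8 and 25.9 and was highest in replicate 2. Genes with transcripts of 6000 bases or more were also higher in replicates 1 and 3 by their median, as given below. The call of Abca8a above 1 FPKM (adjusted p = 0.0151) was lost without replicate 1 or 4 (adjusted p = 0.0572 and 0.0615), that of Abca8b below it (adjusted p = 0.0264) without replicate 2 or 4 (adjusted p = 0.0899 and 0.0787), and that of Abca6 below it (adjusted p = 0.0416) without replicate 2 or 4 (adjusted p = 0.123 and 0.132). The Abca6 call was also lost with smaller pseudocounts, no filter, no trend, a length trend removed (adjusted p = 0.0946) and rescaling (-0.12, adjusted p = 0.718), and the Abca8b call with smaller pseudocounts and no filter, while its direction turned with rescaling (0.21) and with a length trend removed (0.014). Rescaling and removing the length trend also raised the median of all genes tested, as given below.

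On chromosome 5, between 8660077 and 8959231, Abcb1a, Abcb1b and Abcb4 lie on the plus strand and differ as given above. Abca14, Abca15 and Abca16 lie side by side on chromosome 7 (120203961 to 120544813) and were the only such group listed at 0 throughout. Abcc5 and Abcf3 on chromosome 16, and Abcb8 and Abcf2 on chromosome 5, were groups in which both members exceeded 10 FPKM.

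**Figure D4:**
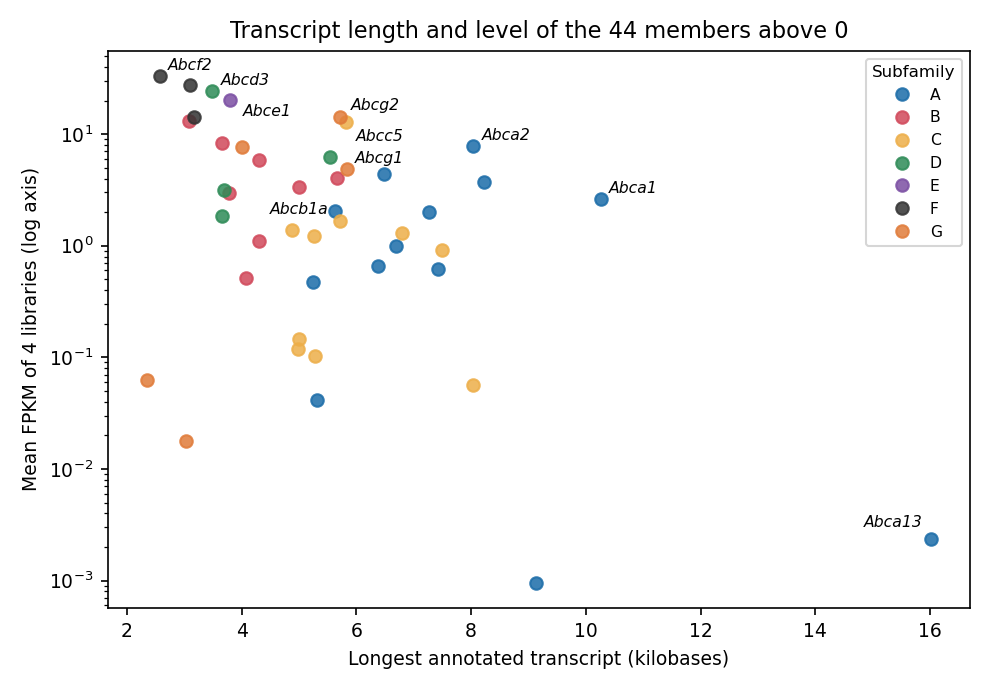
Mean FPKM (log axis) of the 44 members above 0 against the length of their longest annotated transcript, coloured by subfamily. The subfamily E and F genes are short and high, and subfamily A reaches from 5240 to 16011 bases.

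Transcript length was set beside the level of the members and beside their spread between libraries. Over the 44 members above 0, Spearman's rho between longest transcript and mean FPKM was -0.31 (-0.27 over the 31 outside subfamily A), whereas it was 0.31 over 24969 genes tested with a length, as a description across genes that share libraries. The median length was 5274.5 bases over these members and 2492 over those genes. Of the 6 subfamily A members averaging 1 FPKM or more, 5 were lowest in replicate 2, against 5 of 23 members of other subfamilies, a count made after the values were seen. Summed FPKM of subfamily A was 31.9, 15.1, 31.4 and 23.4, while that of subfamily B was 40.6, 39.6, 38.9 and 37.8.

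**Figure D5:**
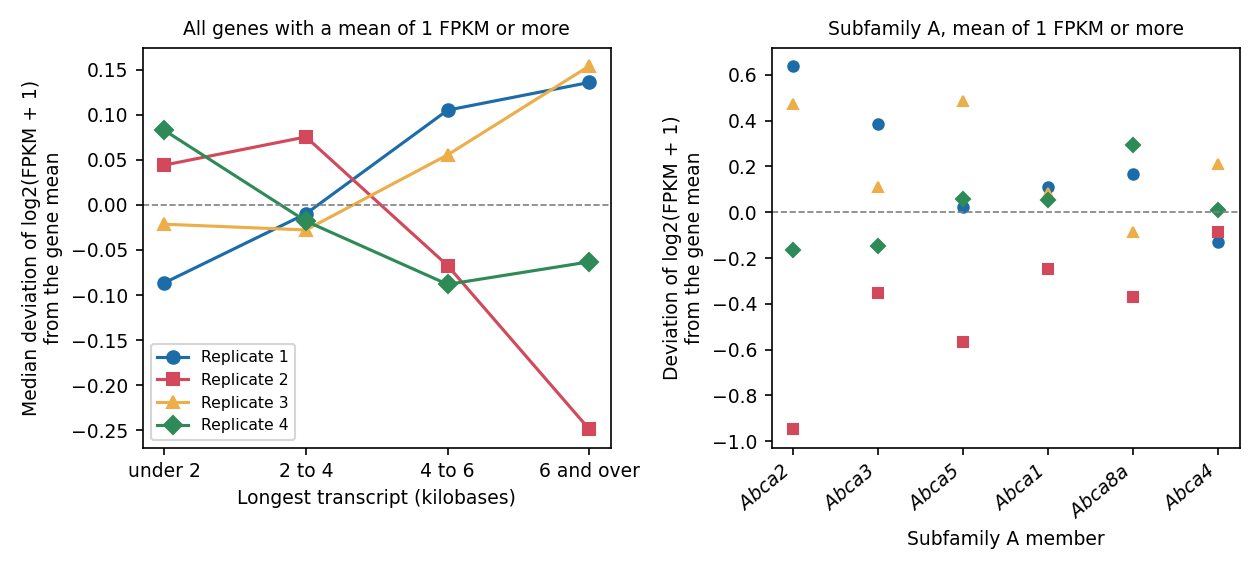
Left, median deviation of log2(FPKM + 1) from the gene mean in each library, over all genes with a mean of 1 FPKM or more, by length of the longest transcript. Right, the same deviation for each subfamily A member with a mean of 1 FPKM or more, where replicate 2 is lowest for 5 of 6.

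Across all 1710 genes averaging 1 FPKM or more and a transcript of 6000 bases or more, the median deviation from the gene mean was 0.14, -0.25, 0.15 and -0.06 in replicates 1 to 4. Over 3589 genes under 2000 bases it was -0.09, 0.04, -0.02 and 0.08. The part of transcript length in the spread of subfamily A was not tested. Without replicate 2, 24 members lay above 1 FPKM and 8 below, of 42 tested, or 57.1% and 19%. The background was then 48.1% and 36.7% of genes tested. Removing the length trend set every gene to the median length of the endothelial markers, which moved the whole scale. The median of log2(FPKM + 1) went from 1.27 to 1.95 over all genes tested and from 1.59 to 1.81 over members. With a length trend removed, 26 lay above and 10 below, or 59.1% and 22.7% of members, where the background is then 64.1% and 23.4% of genes tested. The share above is thus over the background in the values as deposited and under it with this adjustment.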

How the data were processed

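Poly(A) RNA-seq of 4 laser-captured libraries of 1 group was used as FPKM, computed by the authors, per the file headers. Tools named in the submitters' processing notes, with no role or order, are HISAT2 2.2.1, StringTie 2.2.1, SAMtools and bcl2fastq 2.20, and the build is GRCm38. Not given in the sources used here are strand setting, annotation release and the treatment of reads that map to several genes. Depth is unknown, so no counting interval is given, and a value of 0 is written as listed at 0. Between any pair of libraries at most 4 values above 0 were identical.

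Levels were tested as log2(FPKM + 1) with limma 3.58.1 (R 4.3.3, mean-variance trend) over 25206 genes above 0 in any library, against 1 FPKM and against the same library's median of 14 endothelial markers, with Benjamini-Hochberg adjustment over all genes and a threshold of 0.05. A pseudocount of 1 understates differences of low genes. In all, 16 member pairs were compared within libraries by exact 2-sided sign-flip tests. Only the limma test against a fixed level was tried on simulated data, and without the mean-variance trend. The test against the endothelial median, the pair test and the other steps were not simulated. Transcript lengths, positions and sequences are from GENCODE M21, which held 45223 of the 46072 genes. Of 164 list entries all were found, Gcn1 as Gcn1l1 and Mmut as Mut.

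Members and lists were chosen with earlier results of these data known. Named by rule were members with a mean of at least 5 FPKM, the 3 highest and the lowest of each subfamily, genes of the pairs, members at 0 in some libraries, and the 2 highest and the lowest gene of each list. Abca4, Abca6, Abca9, Abcb6, Abcc1, Abcc3, Abcc10, Cdh5, Pelo, Hbs1l, Pex3, Nr1h2, Nr1h3, Nr1i3, Ahr, Arnt, Nfe2l2, Rdx, Msn and the members at 0 throughout were named in addition, after their values were seen. Alternatives were smaller pseudocounts, other filters, rescaling, no trend, the mean of the endothelial list, a length adjustment, leaving out each library, and, chosen after seeing the data, an averaged endothelial median. Single values of some members are not reported here; they stay in the counts and sums.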

Additional observations from a re-analysis of the deposited data

Results flagged for a closer look

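In a pair of members 1 library stood far from the other 3, by its gap to the nearest value over the whole range set against Dixon's critical value, which chance exceeds in about 1 in 20 groups. The measure was taken for all 44 members with some value above 0, and 5 were flagged. Among that many members some are flagged by chance alone, so no flag is read as a real outlier. Abcb6 was low in replicate 1, at 1.98 FPKM, a value that is uncertain because of the windows it shares with Gm29253. Abca1 was low in replicate 2, at 2.04 FPKM. In 3 further members that measure is 1 by construction, since they were above 0 in a single library: Abcg3 at 0.0717 FPKM and Abca12 at 0.00384 FPKM, both in replicate 2, and Abca13 at 0.00935 FPKM in replicate 4.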

How the results depend on the processing

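The number of members above 1 FPKM was 25 and ran from 22 to 30 over the alternatives. The number below was 12 and ran from 6 (only genes with a mean of 0.1 FPKM or more) to 16 (no filter). Shares over all genes tested moved too, from 47.7% above and 40.1% below in the values as deposited. The share of genes below was 25.9% with the filter at 0.1 FPKM and 65.4% with no filter. Against the endothelial median 10 to 13 members lay above and 21 to 33 below. In the values as deposited 30.6% of all genes tested lay above it and 60.9% below, and these counts moved too. Below it lay 10275 of 20089 genes and 21 of 38 members with the filter at 0.1 FPKM. With no filter 36317 of 46072 genes and 33 of 50 members lay below. Above it lay 6798 of 25206 genes and 10 of 44 members with the mean of the endothelial list. With a pseudocount of 0.01, 7698 of 25206 genes and 13 of 44 members lay above. Rescaling each library to a sum of 1000000 raised the median of all genes by 0.73 on the log2 scale (0.84 without mitochondrial genes). It raised that of members by 0.82 (0.95). It gave 30 members above and 9 below, or 68.2% and 20.5%, where the background was 54.3% and 29.7% of genes tested. Rescaling turned the direction against 1 FPKM for Abca7 (0.62, or 0.73 without mitochondrial genes), Abca8b (0.21 or 0.30) and Abcb4 (0.078 or 0.16). Abca8b also turned with the length adjustment (0.014), which raised the median of all genes tested from 1.27 to 1.95. Of 44 members 32 kept their call against 1 FPKM, and 34 that against the endothelial median, under every alternative run. All 144 alternative values of the 16 pair differences kept their direction. Leaving out 1 library gave 22 to 24 members above 1 FPKM and 8 to 13 below, and 10 to 13 above the endothelial median. Of all genes tested, 47.4% to 48.1% then lay above 1 FPKM and 36.5% to 37.1% below. Above the endothelial median lay 7491 of 24331 genes and 10 of 44 members without replicate 1. Without replicate 3 these were 7796 of 24314 genes and 13 of 44 members. No paired analysis was possible because the libraries form 1 group. Depth is unknown, so values near 0 cannot be bounded.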
